A study of Mus musculus with 458 samples.

Results

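Haematopoietic stem cells (HSCs) that restore only platelets, erythrocytes and myeloid cells after transplantation (PEM HSCs) were compared with HSCs that restore every blood lineage (multilineage, MUL HSCs). The cells were chosen by the reconstitution status that the submitters recorded for each cell, which gave 118 PEM and 163 MUL cells, 281 of the 458 cells in the series. The 118 PEM cells came from 2 mice, with 93 cells in mouse 1 and 25 in mouse 2, and the 163 MUL cells came from 2 mice, with 78 cells in mouse 1 and 85 in mouse 2. A further 177 cells came from 2 mice with platelet restoration alone (PLT), which helped to estimate the spread between mice. Every mouse was a C57BL/6 recipient in which a single donor HSC positive for Vwf had been transplanted. The recipients were followed over 16 weeks, and each mouse thus carries the progeny of 1 donor clone. The cells sequenced were donor-derived HSCs sorted from the recipient's marrow as lineage-negative, Sca-1-positive, Kit-positive (LSK) CD150+CD48-CD45.2+ cells, in which CD45.2 marks the donor. One cell was sorted into each well and made into a SMARTer Ultra Low RNA library, and expression is given as RPKM, reads scaled by gene length and by the reads of a cell. All of these steps are shared by PEM and MUL mice. The mouse is the replicate, and each value below is a mean over the cells of a mouse or the share of its cells at 1 RPKM or more.

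An HSC renews itself and feeds all blood lineages, yet single HSCs differ in the lineages they supply, and some supply the platelet and erythroid side with few or no lymphocytes. Vwf, the gene of von Willebrand factor, a clotting protein of platelets and vessel walls, marks HSCs with a platelet bias, and it rises with age together with the surface receptor CD150 and a set of other genes. CD34 is low on mouse HSCs with the longest repopulating ability and higher on cells closer to lymphoid and myeloid commitment.

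The RNA was checked against the sort. Slamf1, the gene of CD150, was detected in all 4 mice but in few MUL cells (values below), and Cd48, whose protein was sorted against, averaged 2.91 and 0 RPKM in PEM mice, against 3.49 and 2.26 RPKM in MUL mice. At least 2 markers of an HSC and progenitor list were at 1 RPKM or more in 100% and 92% of PEM cells and in 88.5% and 96.5% of MUL cells. PEM cells held more detected genes by the authors' count, with medians of 3186 and 2752 in PEM mice, against 2210 and 2553 in MUL mice, at median depths between 4.28 and 5.32 M mapped reads. Mitochondrial reads took a median of 4.01% and 4.03% in PEM mice, against 6.06% and 5.34% in MUL mice. PEM mouse 2 stood apart in several ways. It had the fewest cells, and its plates had median depths of 3.2 and 12.2 M reads and medians of 3224 and 1944 detected genes. Plate 2 of this mouse thus lay below every MUL plate in detected genes, where the medians ran from 2172 to 2604. Of its cells, 16% carried at least 2 neutrophil markers and 20% at least 2 mature erythroid markers. In the other 3 mice these shares lay between 2.56% and 10.6%. At least 2 macrophage and monocyte markers were found in 9.68% and 12% of PEM cells, against 2.56% and 3.53% of MUL cells. For B cell markers and for T and NK cell markers such shares overlapped between the groups. By the prefix of their labels, both MUL mice came from 1 experiment and each PEM mouse from an experiment of its own, so that group and experiment cannot be told apart.

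Across 11337 genes tested, limma called 0 genes past a Benjamini-Hochberg adjusted p of 0.05, either on log2(mean RPKM + 1) or on the share of cells at 1 RPKM or more (0% in both). The smallest adjusted p was 0.366 for the level and 0.806 for the share. At an unadjusted p under 0.05, 318 genes were higher and 316 lower in PEM mice by level, and 426 were higher and 42 lower by share. These p-values measure the spread between mice, and an exact permutation of 2 mice against 2 cannot give a p below 0.33. The results are therefore given as values in each mouse, and a gene is said to hold in both PEM mice when both lie outside both MUL mice in mean RPKM and in the share of cells, with at least a 2-fold step in mean RPKM + 1 between the nearest mice.

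By that rule 203 genes were higher (1.79% of those tested) and 176 lower (1.55%) in both PEM mice. Agreement between the PEM mice was partial. PEM mouse 1 alone lay higher than both MUL mice by the same rule for 613 genes and PEM mouse 2 for 935, so the 203 shared genes were 33.1% and 21.7% of each mouse's own. In the lower direction the counts were 366 and 1480, and the 176 shared genes were 48.1% of those of mouse 1 and 11.9% of those of mouse 2. Of the 203 higher genes, 68 also had every PEM plate above every MUL plate, and of the 176 lower genes, 73 had every PEM plate below, against 2.75% and 2.69% of all tested genes by plates alone. Plates were compared in mean RPKM only, here and below. Many calls rested on few cells: 81 of the higher and 111 of the lower genes were at 1 RPKM or more in under 10% of the cells of every mouse. When cells were averaged as log2 values, which gives the highest cells less weight, 216 genes were higher but 27 of them were among the 203, and 4 genes were lower. With each gene's highest cell of every mouse left out, 158 genes were higher and 132 lower by the rule, of which 90 and 83 were among the 203 and 176. Of 35 genes named here that met the rule, 6 did not meet it then: Vwf, Plac8, Il12a, Clec1b and Tnfsf13b among the higher and Msi2 among the lower. Without the condition on shares and on the size of the step, 17.5% of all tested genes lay higher and 18.3% lower in both PEM mice by mean RPKM.

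Vwf and Slamf1, genes of HSC platelet bias and ageing, were higher in both PEM mice, although cells of every mouse came from a clone chosen for Vwf and a sort for CD150. Vwf averaged 24.6 and 23.5 RPKM in PEM mice 1 and 2, against 2.39 and 8.53 RPKM in MUL mice 1 and 2. It was at 1 RPKM or more in 54.8% (exact Clopper-Pearson 95% interval 44.2 to 65.2) and 40% (21.1 to 61.3) of PEM cells, against 11.5% (5.41 to 20.8) and 15.3% (8.4 to 24.7) of MUL cells. The groups did not overlap on either measure, and every PEM plate lay above every MUL plate in mean RPKM. On plate 2 of PEM mouse 2, however, that mean rested on a single cell at 245.7 RPKM. The next cells of that plate were at 17.06 and 2.754 RPKM. Without the highest cell of each mouse Vwf averaged 23 and 14.3 RPKM in PEM mice, against 1.88 and 7.26 RPKM in MUL mice, a step of 1.85-fold between the nearest mice. In limma the log2 fold change was 2.14 ± 0.69 (SE), with an unadjusted p of 0.0143 and a Benjamini-Hochberg adjusted p of 0.867. The intervals cover counting error within a mouse only. Slamf1 averaged 65.8 and 41 RPKM in PEM mice, against 20 and 4.25 RPKM in MUL mice, and was detected in 37.6% and 24% of PEM cells, against 10.3% and 4.71% of MUL cells. Both PEM mice lay above both MUL mice for Slamf1 too, on both measures, and on every plate in mean RPKM.

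Of 35 tested genes of an HSC ageing list, 27 had a higher and 8 a lower mean in PEM mice, and 10 (28.6%) were higher and 0 lower in both mice by the rule above, against 1.79% and 1.55% of all tested genes. Its members Vwf and Clu are also in the platelet list, Mt1 and Mt2 in the metallothionein list and Slamf1 in the HSC identity list. These lists are therefore not independent. The median log2 difference was 0.70 for the list, against -0.04 over all tested genes, and 1.08 and 0.62 in PEM mice 1 and 2 taken alone, with 0.43 among cells with 1800 to 3000 detected genes. Clu, which encodes the secreted chaperone clusterin, averaged 63.6 and 32.1 RPKM in PEM mice, against 9.64 and 8.14 RPKM in MUL mice, but its log2 difference was -1.58 among cells with 1800 to 3000 detected genes. Sdpr (cavin-2), a coat protein of the membrane pits called caveolae, averaged 45.4 and 78.5 RPKM in PEM mice, against 19.7 and 13.1 RPKM in MUL mice. Clca1, a member of a family of chloride channel regulators (the file uses an older symbol, which newer annotations give to another member), was at 1 RPKM or more in 45.2% and 28% of PEM cells, against 6.41% and 7.06% of MUL cells. Over all cells none of these 3 genes overlapped between the groups. A cell of the PEM mice held a median of 10 and 7 members of the list at 1 RPKM or more, against 4 and 6 in the MUL mice. Among cells with 1800 to 3000 detected genes these medians were 9 and 5 in PEM mice and 4 and 5 in MUL mice, so the groups were no longer apart. The list's share of all RPKM overlapped over all cells, at a median of 0.35% and 0.227% in PEM cells and 0.142% and 0.292% in MUL cells.

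**Figure D1:**
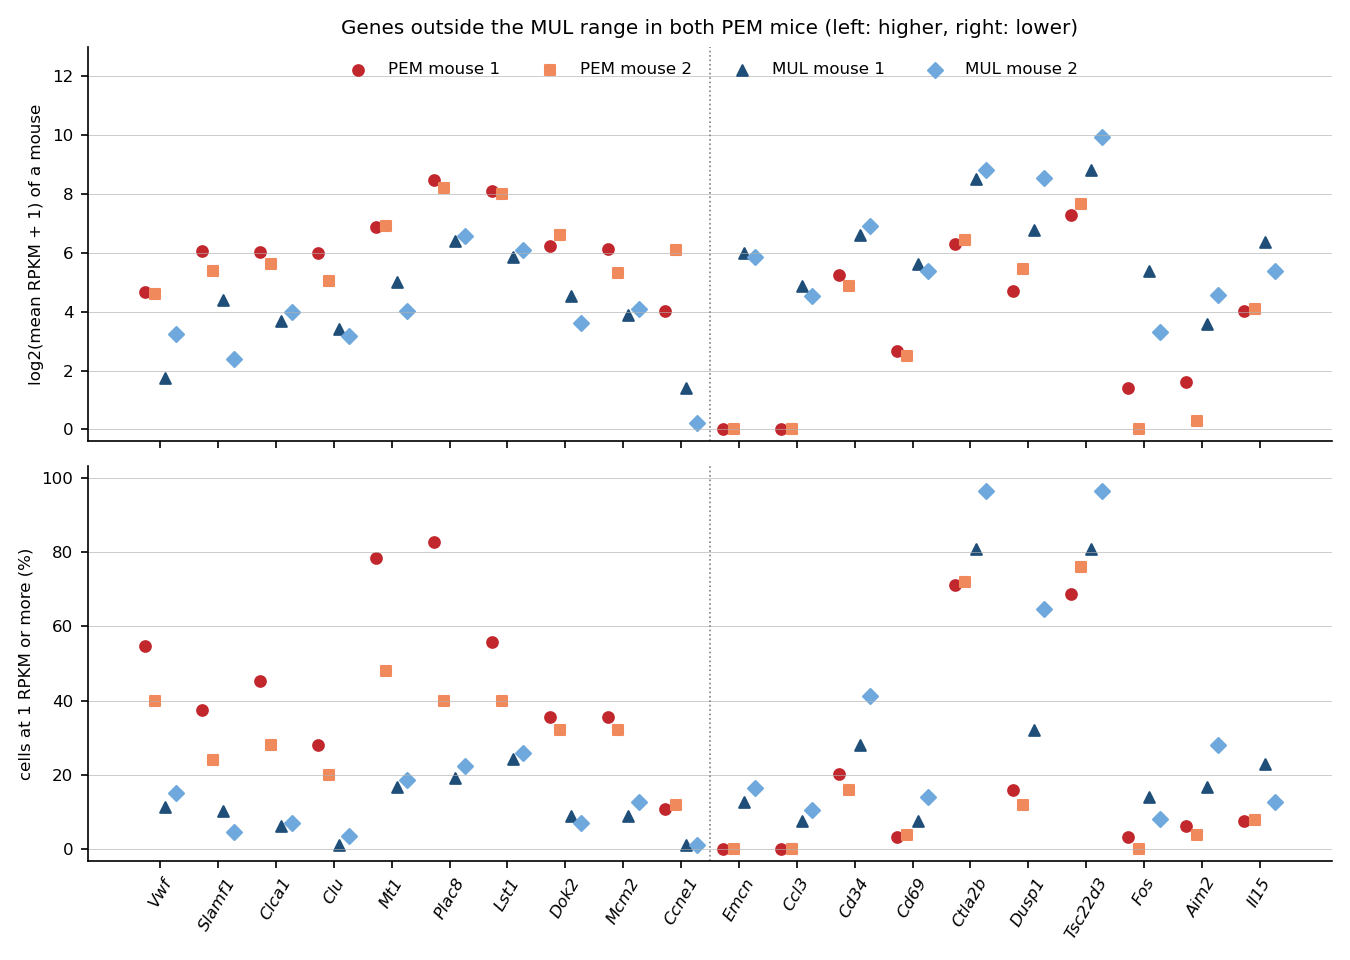
Mean expression as log2(mean RPKM + 1) (top) and percent of cells at 1 RPKM or more (bottom) for 20 genes that hold in both PEM mice, with 1 point per mouse and no error bars. The PEM points lie above the MUL points for the 10 genes on the left, such as Plac8 at 82.8% and 40% of PEM cells against 19.2% and 22.4% of MUL cells, and below them for the 10 on the right.

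Within the PEM mice, Slamf1 and Clca1 were detected in a larger share of the cells with Vwf than of those without it. In PEM mouse 1, Slamf1 was at 1 RPKM or more in 56.9% of the 51 cells with Vwf and 14.3% of the 42 cells without it, and in PEM mouse 2 in 40% of 10 cells and 13.3% of 15 cells. Clca1 followed, at 58.8% and 28.6% in PEM mouse 1 and at 50% and 13.3% in PEM mouse 2. Cd34 ran the other way, at 13.7% of cells with Vwf and 28.6% without in PEM mouse 1, and at 10% and 20% in PEM mouse 2. The MUL mice had only 9 and 13 Vwf cells. There Slamf1 was at 11.1% with and 10.1% without Vwf in mouse 1, and at 0% and 5.56% in mouse 2. Clca1 was at 22.2% with and 4.35% without Vwf in MUL mouse 1, and at 7.69% and 6.94% in MUL mouse 2. Cd34 was at 22.2% with and 29% without Vwf in MUL mouse 1, and at 23.1% and 44.4% in MUL mouse 2. Clca1 was thus the more frequent and Cd34 the less frequent with Vwf in all 4 mice. In MUL mouse 2, however, Clca1 was found in 1 of 13 cells with Vwf and 5 of 72 without it. Mt1, Pf4 and Sdpr were also more frequent with Vwf in all 4 mice, while Clu had no common direction. Plac8 was the less frequent with Vwf, but in PEM mouse 1 the shares were nearly equal, at 82.4% with and 83.3% without it. Whether these relations differ between PEM and MUL mice was not tested. Cells with Vwf held more detected genes (medians of 3210 against 3031 in PEM mouse 1, 3536 against 2554 in PEM mouse 2, 2908 against 2153 in MUL mouse 1 and 2647 against 2542 in MUL mouse 2); the part of this in the shares was not tested.

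The metallothioneins, small proteins that bind zinc and copper, differed in both PEM mice. Mt1 averaged 116 and 120 RPKM in PEM mice, against 31.6 and 15.1 RPKM in MUL mice. It was at 1 RPKM or more in 78.5% and 48% of PEM cells, against 16.7% and 18.8% of MUL cells, and its log2 fold change was 2.37 ± 0.44 (SE; limma, Benjamini-Hochberg adjusted p = 0.867). Both PEM mice thus lay above both MUL mice, and in mean RPKM on every plate. On plate 2 of PEM mouse 2 that mean rested on cells at 673.3 and 173.9 RPKM, and its other cells lay under 1 RPKM. The share of 48% in PEM mouse 2 thus came mostly from plate 1. In the other mice the shares were not compared by plate. Low values made up part of the share in PEM mouse 1, where 33 cells lay between 1 and 20 RPKM; at 20 RPKM or more the shares were 43% and 28% in PEM mice and 10.3% and 9.41% in MUL mice. Mt2 averaged 8.91 and 6.48 RPKM in PEM mice and was listed at 0 in every MUL cell, which allows up to 3.85% and 3.53% of cells with a value at this sensitivity; Mt1 and Mt2 lie side by side on chromosome 8. The PLT mice, which restored platelets alone, had 231 and 280 RPKM of Mt1 and 14.3 and 18.9 RPKM of Mt2. The metal response element, the site that the zinc-sensing factor MTF1 binds, was searched as the letters TGCACNC and TGCGCNC, on both strands, in the 250 bases before the Mt2 start. This window (RefSeq, GRCm38.p6, plus strand, chr8:94172368-94172617) is shown because it carries several of them; capitals mark 2 matches of TGCACNC and 1 of TGCGCNC, with the GTGTGCA match on the minus strand. Matches of these forms are held by 10.4% and 12.5% of 32851 promoter windows of the same length, so they are a description of the sequence and not a measured binding site.
Mt2 upstream: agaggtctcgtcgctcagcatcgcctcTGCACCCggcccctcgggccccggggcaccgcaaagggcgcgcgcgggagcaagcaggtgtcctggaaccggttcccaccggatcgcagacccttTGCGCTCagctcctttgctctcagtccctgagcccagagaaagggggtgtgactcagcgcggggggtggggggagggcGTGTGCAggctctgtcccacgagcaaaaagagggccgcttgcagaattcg

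Plac8, a small cysteine-rich protein of myeloid and lymphoid progenitors, had its PEM difference in the share of cells. It averaged 352 and 294 RPKM in PEM mice, against 84.7 and 95.2 RPKM in MUL mice, a log2 fold change of 1.83 ± 0.35 (SE; limma, adjusted p = 0.867). At 20 RPKM or more it was found in 69.9% and 36% of PEM cells, against 17.9% and 21.2% of MUL cells, and in those cells the median was 451 and 209 RPKM in PEM mice, against 351 and 360 RPKM in MUL mice. The level within positive cells overlapped between the groups, while the share of positive cells did not. In PEM mouse 2 a single cell at 5058 RPKM carried much of the mean. Without the highest cell of each mouse Plac8 averaged 336 and 95.8 RPKM in PEM mice, against 63.9 and 78.5 RPKM in MUL mice, a step of 1.22-fold between the nearest mice. Lst1, a gene of the major histocompatibility region expressed in leukocytes, averaged 272 and 258 RPKM in PEM mice, against 56.6 and 67.1 RPKM in MUL mice, with 55.9% and 40% of PEM cells and 24.4% and 25.9% of MUL cells at 1 RPKM or more. Dok2, an adaptor that restrains receptor signalling in blood cells, averaged 74.5 and 97.3 RPKM in PEM mice, against 22.3 and 11.2 RPKM in MUL mice. Every PEM plate lay above every MUL plate for Dok2, but not for Plac8 or Lst1.

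**Figure D2:**
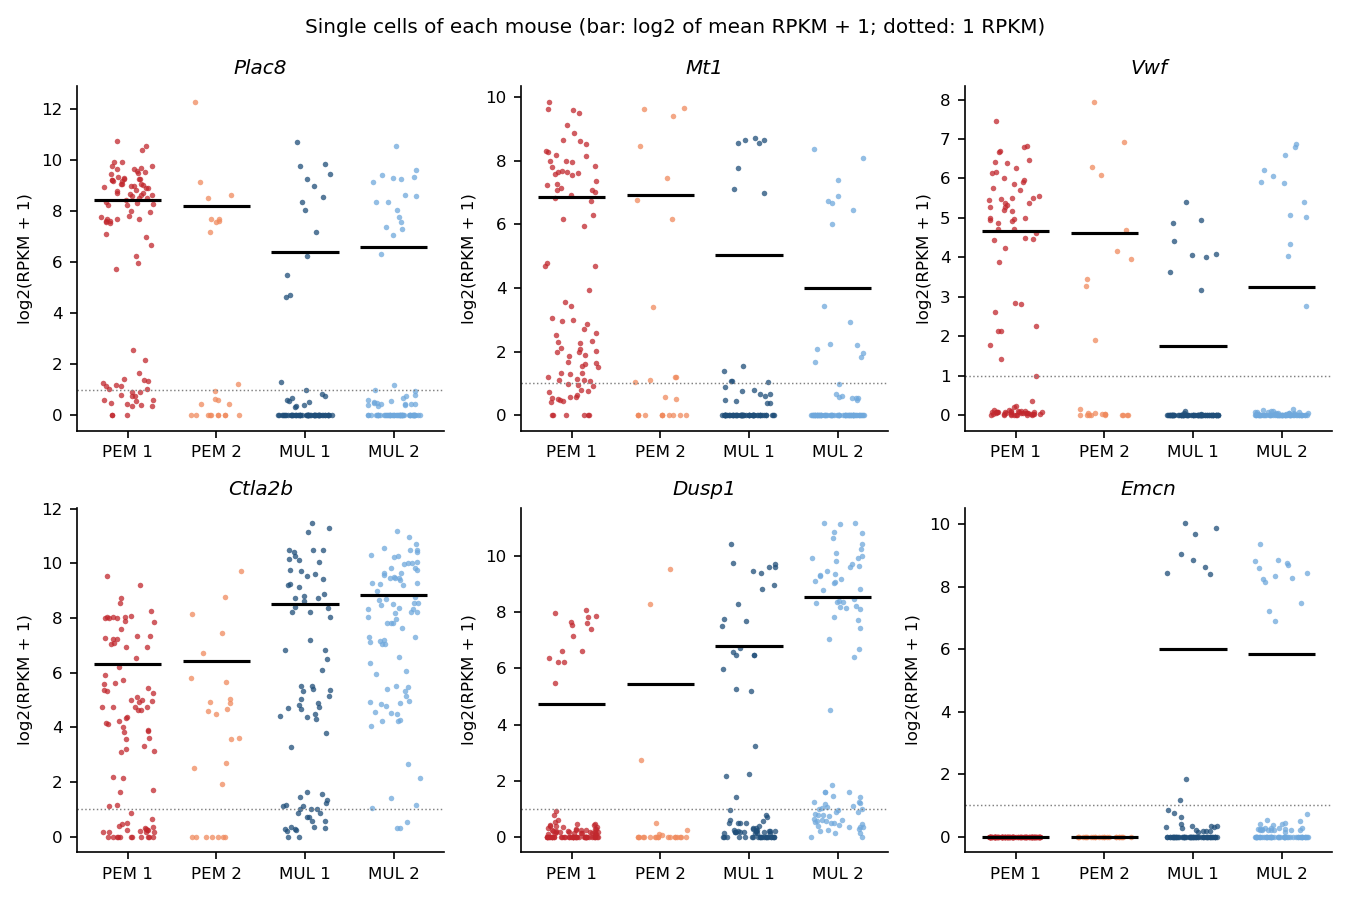
Expression of 6 genes in single cells as log2(RPKM + 1), by mouse; each point is 1 cell, the bar is the log2 of the mouse's mean RPKM + 1 and the dotted line is 1 RPKM. Plac8, Mt1 and Vwf are high in more PEM than MUL cells, Ctla2b is lower in level in PEM cells, Dusp1 is high in few PEM cells, and Emcn is listed at 0 in all 118 PEM cells.

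Of 39 tested platelet and megakaryocyte genes, 28 had a higher and 11 a lower PEM mean. The list summed to 3680 and 4272 RPKM in PEM mice, against 3468 and 3522 RPKM in MUL mice. Its median share of a cell's RPKM ran the other way, at 0.604% and 0.573% in PEM cells, against 0.626% and 0.671% in MUL cells. The mean share overlapped, at 0.655% and 0.749% in PEM cells, against 0.67% and 0.683% in MUL cells. By the rule, 5 genes (12.8%) were higher in both PEM mice (Vwf, Clu, Pf4, Ppbp and Clec1b), and 0 were lower, against 1.79% and 1.55% of all tested genes. Clec1b, a platelet receptor gene, was above 1 RPKM in 1 cell of each PEM mouse. The list's median log2 difference was 0.47, against -0.04 over all genes, but 0.27 without MUL mouse 2, 0.06 among cells with 1800 to 3000 detected genes and 0.00 on plate 2 alone. Pf4, the platelet chemokine, averaged 419 and 1382 RPKM in PEM mice, against 174 and 19.4 RPKM in MUL mice, and was detected in 43% and 56% of PEM cells, against 24.4% and 12.9% of MUL cells. Its groups did not overlap, although mice within a group differed several-fold. Mature megakaryocyte markers summed to 555 and 1514 RPKM in PEM mice, against 235 and 77.5 RPKM in MUL mice, with at least 2 of these markers in 28% and 40% of PEM cells, against 10.3% and 7.06% of MUL cells; their part in the list was not tested. Gata1, the erythroid and megakaryocyte transcription factor, averaged 18.7 and 19.8 RPKM in PEM mice, against 10.3 and 4.3 RPKM in MUL mice. Itga2b (CD41), a platelet integrin that also marks early HSCs, averaged 24.7 and 25.2 RPKM in PEM mice, against 23.3 and 6.57 RPKM in MUL mice, a step too small to meet the rule. Among cells with 1800 to 3000 detected genes the log2 differences of Gata1 and Itga2b were -0.20 and -1.89, and on plate 2 alone -0.24 and -1.27.

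Erythroid and myeloid genes, which belong to the lineages that PEM clones supply, showed no common direction. Of 34 erythroid genes 18 were higher and 16 lower, with a median of 0.09 and opposite medians in the 2 PEM mice (-0.29 and 0.65). Klf1, the erythroid master factor, averaged 2.85 and 67.1 RPKM in PEM mice, against 51.1 and 3.35 RPKM in MUL mice. Of 30 myeloid regulators and receptors 13 were higher and 17 lower, and the receptor gene Csf3r averaged 19.7 and 12.9 RPKM in PEM mice, against 16.7 and 25.3 RPKM in MUL mice. Sfpi1, the gene of the myeloid factor PU.1, averaged 55.2 and 66.7 RPKM in PEM mice, against 39.2 and 52.7 RPKM in MUL mice, but its share of cells overlapped and its log2 difference was -2.45 without the cells that held mature markers. For Klf1 and Csf3r the mice overlapped in mean RPKM.

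Lymphoid priming genes, which would prepare the lineage that PEM clones did not restore, had slightly lower sums in both PEM mice. Their members shared no direction. They summed to 1209 and 1214 RPKM in PEM mice, against 1277 and 1319 RPKM in MUL mice. Of 28 tested genes, 10 had a higher and 18 a lower PEM mean, with a median of -0.29 (-0.19 and -0.10 in PEM mice 1 and 2, and -0.58 without the cells that held mature markers). Over all tested genes the medians were 0.07 and -0.14 in PEM mice 1 and 2. Without overlap, 3 lay higher and 4 lower (10.7% and 14.3%, against 17.5% and 18.3% of all tested genes). Several defining genes were at or near 0. The lymphoid enzyme gene Dntt was listed at 0 in every mouse, and Il7r, the interleukin-7 receptor, averaged 0.015 and 0.0193 RPKM in PEM mice, against 0.0117 and 0.0108 RPKM in MUL mice. Flt3, the receptor of lymphoid-primed progenitors, averaged 1.14 and 9.43 RPKM in PEM mice, against 1.89 and 13.2 RPKM in MUL mice. Il12a, which encodes a subunit of interleukin-12 and interleukin-35, was the only list member to hold in both mice, and it was higher, at 38.7 and 73.1 RPKM in PEM mice and 18.4 and 15.7 RPKM in MUL mice, with a step of 1.95-fold without the highest cell of each mouse. The small difference of the sums was not tested, and a common direction of the members was not seen with these cells and mice.

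The surface genes CD34 and endomucin were lower in PEM HSCs. Cd34 averaged 36.9 and 28.5 RPKM in PEM mice, against 95.6 and 121 RPKM in MUL mice, and was at 1 RPKM or more in 20.4% and 16% of PEM cells, against 28.2% and 41.2% of MUL cells. Every PEM plate lay below every MUL plate (log2 fold change -1.70 ± 0.79; limma, adjusted p = 0.867). Emcn, the gene of endomucin, a sialomucin of endothelium and HSCs, was listed at 0 in all 93 and 25 PEM cells, which allows up to 3.23% and 12% of cells with a value at this sensitivity; a value of 0 does not show that the transcript was absent. In MUL mice it averaged 62.7 and 56.6 RPKM, with 12.8% and 16.5% of cells at 1 RPKM or more. Emcn and Erdr1 had the smallest adjusted p by level (limma, 0.366), for Emcn at a log2 fold change of -5.92 ± 0.76 that depends on the pseudocount because the PEM mice are at 0. The PLT mice had 11.1 and 40.7 RPKM. Low traces between 0 and 1 RPKM appeared in 15 and 23 MUL cells and in 0 PEM cells of either mouse. Of 25 genes that HSCs share with endothelium, 3 lay higher and 2 lower in both PEM mice without overlap in mean RPKM (12% and 8%, against 17.5% and 18.3% of all tested genes), with a median of -0.03.

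For most other HSC genes the mice overlapped. Among 38 genes of HSC identity and self-renewal, 13 were higher and 25 lower with a median of -0.18, of which 4 and 10 lay outside the MUL mice without overlap (10.5% and 26.3%, against 17.5% and 18.3% of all tested genes), and besides Cd34 and Slamf1 only Msi2 met the rule. Msi2, an RNA-binding regulator of HSC self-renewal, averaged 13.8 and 8.85 RPKM in PEM mice, against 28.9 and 34.8 RPKM in MUL mice, and lay close to the 2-fold limit. The mice overlapped for the receptor gene Kit (81.3 and 76.1 RPKM in PEM mice, against 72.3 and 109 RPKM in MUL mice) and for Procr, the gene of the HSC marker EPCR (56.9 and 45.3 RPKM in PEM mice, against 43.1 and 75.9 RPKM in MUL mice). The HSC transcription factor gene Hlf averaged 26.8 and 25.2 RPKM in PEM mice, against 25.2 and 43.7 RPKM in MUL mice, and the factor gene Mecom averaged 32.8 and 13.6 RPKM in PEM mice, against 30.5 and 35.1 RPKM in MUL mice. These 4 genes therefore gave no direction.

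Ctla2b and Ctla2a, which encode inhibitors of cathepsin-type proteases, differed in level more than in the share of cells. Ctla2b averaged 78 and 85.7 RPKM in PEM mice, against 362 and 455 RPKM in MUL mice, with a log2 fold change of -2.30 ± 0.38 (SE; limma, adjusted p = 0.77). Among cells at 20 RPKM or more its median was 122 and 50.1 RPKM in PEM mice, against 366 and 356 RPKM in MUL mice. The share of cells at 1 RPKM or more was 71% and 72% in PEM mice, against 80.8% and 96.5% in MUL mice. The groups were separate on both measures, and on every plate in mean RPKM. Ctla2a averaged 162 and 154 RPKM in PEM mice, against 286 and 517 RPKM in MUL mice, a step under 2-fold between the nearest mice. The 2 genes are close in sequence, so reads could be split between them, and the deposited values do not show how such reads were assigned.

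Genes of acute stimulation had lower means in PEM mice than in MUL mice. Of 26 tested immediate early genes, 21 had a lower and 5 a higher PEM mean. Of the 26, 13 lay below both MUL mice without overlap (50% of the list, against 18.3% of all tested genes), and 5 (19.2%, against 1.55%) held by the rule (Fos, Fosl2, Dusp1, Ppp1r15a and Rhob). The median was -0.95, and -0.65 and -1.29 in PEM mice 1 and 2. A cell held a median of 5 and 3 members at 1 RPKM or more in PEM mice, against 5 and 5 in MUL mice. The list took a median of 0.0822% and 0.0804% of all RPKM in PEM cells, against 0.141% and 0.174% in MUL cells. Dusp1, a phosphatase that switches off MAP kinases, averaged 25.3 and 42.4 RPKM in PEM mice, against 110 and 374 RPKM in MUL mice, and was at 1 RPKM or more in 16.1% and 12% of PEM cells, against 32.1% and 64.7% of MUL cells. The groups were apart, and the 2 MUL mice also lay apart from each other. Fos, a subunit of the AP-1 factor, averaged 1.66 and 0 RPKM in PEM mice, against 41.1 and 9.04 RPKM in MUL mice. Ppp1r15a (GADD34), which restores translation after stress, averaged 25.8 and 29.9 RPKM in PEM mice, against 77.6 and 65.7 RPKM in MUL mice. Btg2, an antiproliferative member of the same list, ran against it in 1 mouse, at 12.7 and 177 RPKM in PEM mice and 22.7 and 30.3 RPKM in MUL mice.

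The full cyclic AMP response element, the palindrome TGACGTCA that CREB binds, was searched on both strands in the 250 bases before the start. It was present for 3 of the 23 immediate early genes that had a RefSeq window, Btg2, Dusp1 and Ppp1r15a, and in 1.55% of the 32851 windows. The windows of the last 2 genes are printed because both genes were lower in both PEM mice. They are on the minus strand of GRCm38.p6, at chr17:26508473-26508722 for Dusp1 and chr7:45526269-45526518 for Ppp1r15a, and capitals mark the element, 143 and 12 bases before the start. A match is a feature of the sequence, and nothing was measured here on the binding of a factor.
Dusp1 upstream: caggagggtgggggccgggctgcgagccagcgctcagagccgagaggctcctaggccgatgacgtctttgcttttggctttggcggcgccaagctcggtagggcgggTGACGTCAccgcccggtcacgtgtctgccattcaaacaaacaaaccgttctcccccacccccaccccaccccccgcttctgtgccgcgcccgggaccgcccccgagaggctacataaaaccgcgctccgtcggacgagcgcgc
Ppp1r15a upstream: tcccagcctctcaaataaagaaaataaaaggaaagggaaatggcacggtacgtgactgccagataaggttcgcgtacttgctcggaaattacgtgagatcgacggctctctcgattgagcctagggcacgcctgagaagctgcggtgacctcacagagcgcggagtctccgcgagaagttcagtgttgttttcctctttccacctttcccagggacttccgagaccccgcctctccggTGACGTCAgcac

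Glucocorticoid and FoxO response genes were also lower, at 19 of 23 tested members against 4 higher. Of the 23, 14 lay below both MUL mice without overlap (60.9%, against 18.3% of all genes), and the median was -0.68, with -0.59 and -0.89 in PEM mice 1 and 2. Tsc22d3 (GILZ), a mediator of glucocorticoid action, averaged 154 and 200 RPKM in PEM mice, against 446 and 984 RPKM in MUL mice, and every PEM plate lay below every MUL plate. As a share of all RPKM of a cell the list took a median of 0.248% and 0.186% in PEM cells, against 0.484% and 0.631% in MUL cells. The list holds Dusp1 as well, so it and the immediate early list are not independent. For both lists, the experiment in which a mouse was sorted cannot be told apart from its group.

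Cytokine genes lay on both sides of the MUL range. Ccl3, a chemokine for monocytes and T cells, was listed at 0 in every PEM cell and averaged 28.4 and 22.4 RPKM in MUL mice, in 7.69% and 10.6% of their cells. It was also listed at 0 in both PLT mice. Il15, a growth factor of natural killer and memory T cells, averaged 15.4 and 15.9 RPKM in PEM mice, against 81.3 and 40.6 RPKM in MUL mice, and was found in 7.53% and 8% of PEM cells, against 23.1% and 12.9% of MUL cells. Cd69, a membrane protein that appears early on activated leukocytes, averaged 5.41 and 4.62 RPKM in PEM mice, against 47.9 and 41.2 RPKM in MUL mice. A single cell at 3129 RPKM carried most of the mean of MUL mouse 1, and without the highest cell of each mouse Cd69 averaged 2.71 and 0 RPKM in PEM mice, against 7.89 and 30.3 RPKM in MUL mice. Each of these groups was separate, with few cells behind them. Over 27 tested chemokine and cytokine genes 12 were higher and 15 lower. By the rule, 4 were higher (Pf4, Ppbp, Il12a and Tnfsf13b) and 5 lower in both PEM mice (14.8% and 18.5%, against 1.79% and 1.55% of all tested genes). Aim2, a sensor of cytosolic DNA, averaged 2.05 and 0.214 RPKM in PEM mice, against 11 and 22.7 RPKM in MUL mice.

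**Figure D3:**
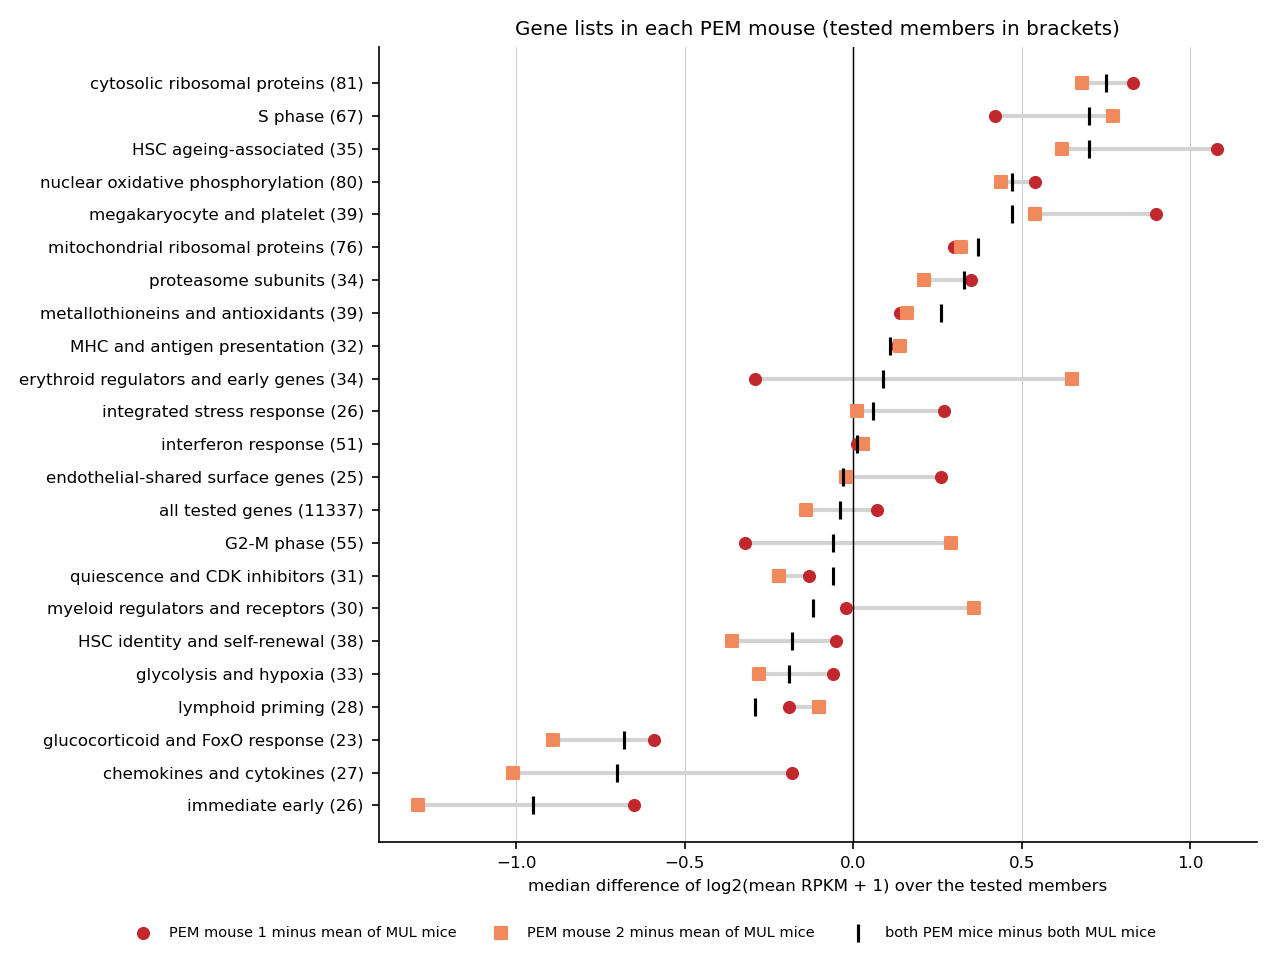
Median difference of log2(mean RPKM + 1) over the tested members of each gene list, for PEM mouse 1 (circle) and PEM mouse 2 (square) against the mean of the MUL mice, and for both against both (bar). Both PEM mice lie on the same side of 0 for ribosomal proteins (0.83 and 0.68) and immediate early genes (-0.65 and -1.29), and on opposite sides for G2-M and erythroid genes.

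Genes of DNA replication had higher means in PEM HSCs, but this did not hold among cells with like numbers of detected genes. Of 67 S phase genes 54 had a higher and 13 a lower PEM mean, and 7 (10.4%, against 1.79% of all tested genes) were higher by the rule in both mice. Mcm2, a subunit of the replicative helicase, averaged 69.7 and 39.1 RPKM in PEM mice, against 13.7 and 16.1 RPKM in MUL mice, in 35.5% and 32% of PEM cells and 8.97% and 12.9% of MUL cells, with a log2 difference of -1.19 on plate 2 alone. Ccne1, the gene of cyclin E1, which drives entry into S phase, averaged 15.2 and 68.2 RPKM in PEM mice, against 1.65 and 0.163 RPKM in MUL mice, in 10.8% and 12% of PEM cells and 1.28% and 1.18% of MUL cells. A single cell at 1297 RPKM carried most of the mean of PEM mouse 2, and without the highest cell of each mouse Ccne1 averaged 12 and 17 RPKM in PEM mice, against 0 RPKM in both MUL mice. Ung, which removes uracil from DNA, averaged 18.8 and 11.6 RPKM in PEM mice, against 3.62 and 1.55 RPKM in MUL mice. A PEM cell held a median of 12 and 14 S phase members at 1 RPKM or more, against 7.5 and 9 for MUL cells. The list's share of all RPKM overlapped, at a median of 0.293% and 0.374% in PEM cells, against 0.308% and 0.295% in MUL cells. Among cells with 1800 to 3000 detected genes these medians were 8 and 12 in PEM mice and 8 and 7 in MUL mice, and the list's median log2 difference was -0.33 there, against 0.70 over all cells and 0.38 without MUL mouse 2. That window left 36 and 11 PEM cells and 53 and 62 MUL cells. For 55 G2-M genes the median was -0.06 (-0.32 and 0.29 in PEM mice 1 and 2), and Mki67, the proliferation marker, averaged 6.07 and 8.98 RPKM in PEM mice, against 15.2 and 6.4 RPKM in MUL mice. The window left out all 21 and 4 PEM cells that held more than 30 S phase members, and 4 of 8 and 5 of 6 such MUL cells, so a higher number of detected genes and a higher share of cells in cycle cannot be told apart.

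**Figure D4:**
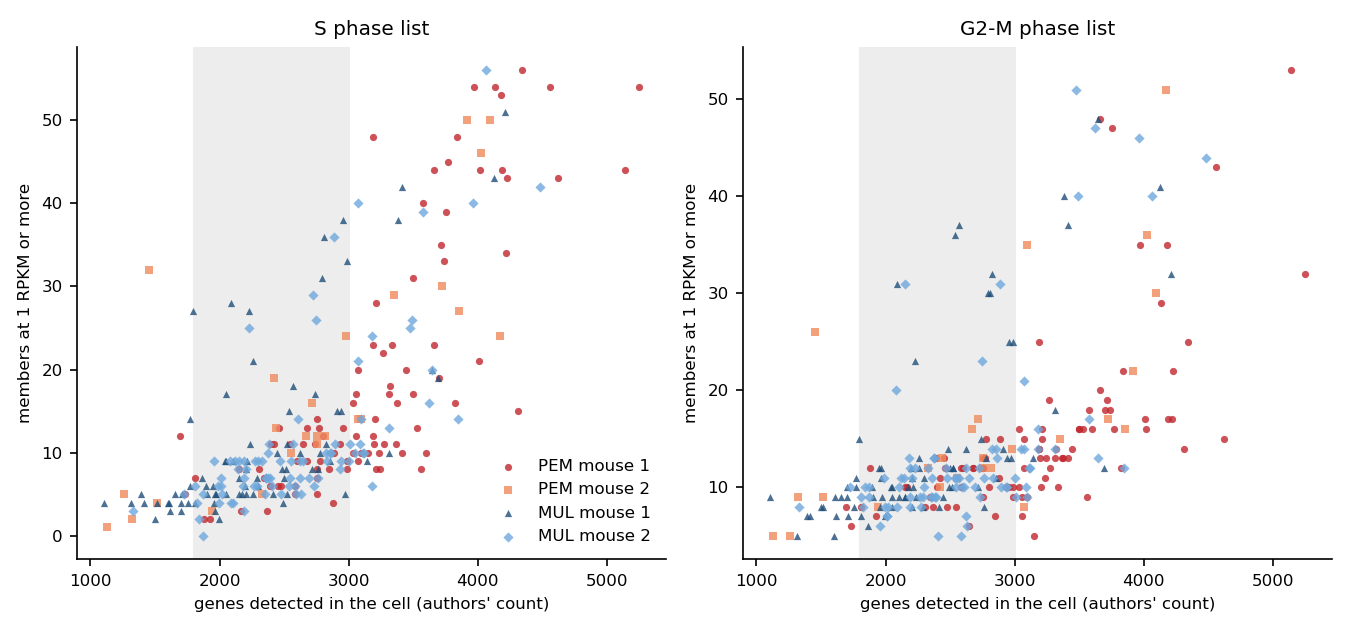
Number of S phase genes (left) and G2-M genes (right) at 1 RPKM or more in a cell, against the authors' count of detected genes; each point is 1 cell of the 4 mice and the grey band marks 1800 to 3000 detected genes. PEM mouse 1 reaches the highest detected counts, and in the band the S phase medians are 8 and 12 members in PEM mice and 8 and 7 in MUL mice.

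Ribosomal protein genes lay higher in PEM HSCs by a small step, nearly all of them in both mice. Of 81 tested cytosolic ribosomal protein genes, 78 had a higher PEM mean and 74 lay above both MUL mice without overlap (91.4%, against 17.5% of all tested genes). The median was 0.75 (0.83 and 0.68 in PEM mice 1 and 2), it was 0.89 in the window of detected genes, and for 64 genes every PEM plate lay above every MUL plate. Rps29, a protein of the small subunit, averaged 2181 and 1544 RPKM in PEM mice, against 699 and 586 RPKM in MUL mice, and Rpl38, of the large subunit, 979 and 942 RPKM in PEM mice, against 374 and 271 RPKM in MUL mice. The list took a median of 14.6% and 13.7% of a PEM cell's RPKM, against 11.1% and 9.68% in MUL cells. Under quantile normalization of the mouse means the median was 0.46. Of 80 nuclear genes of oxidative phosphorylation, 65 had a higher and 15 a lower PEM mean, with a median of 0.47 (0.54 and 0.44), and 47 lay above both MUL mice (58.8%, against 17.5% of all tested genes). Atp5e, a subunit of ATP synthase, averaged 474 and 362 RPKM in PEM mice, against 202 and 134 RPKM in MUL mice. The nuclear genes were thus higher while the share of reads on the mitochondrial chromosome was lower in PEM cells. Gpx1, a glutathione peroxidase that removes peroxides, averaged 1201 and 1745 RPKM in PEM mice, against 711 and 715 RPKM in MUL mice.

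Among the genes higher in both PEM mice, the widest gap between the nearest mice belonged to Erdr1, at 91.6 and 175 RPKM in PEM mice, against 3.29 and 0 RPKM in MUL mice. It was at 1 RPKM or more in 96.8% and 88% of PEM cells, against 1.28% and 0% of MUL cells. RefSeq places it as a transcribed pseudogene at chrX:170010526-170018797 (GRCm38.p6), in the pseudoautosomal region, which the X and Y chromosomes share and which holds repeated sequence, so its read assignment is uncertain. The PLT mice had 102 and 308 RPKM. The near-absence in the MUL mice is thus also the near-absence in the mice of 1 experiment. Capsl, a calcium-binding protein gene, was listed at 0 in every PEM cell and averaged 33 and 21.8 RPKM in MUL mice. Zfp661, a zinc finger gene, was listed at 0 in every PEM cell and averaged 17.8 and 18.7 RPKM in MUL mice.

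Several large differences of group means came from 1 mouse and did not hold in both. Xlr, an X-linked lymphocyte gene, was at 222 RPKM in MUL mouse 1 and at 0 in both PEM mice and MUL mouse 2. Dkkl1, a gene related to the Dickkopf inhibitors, averaged 62.1 and 0 RPKM in PEM mice, against 57.9 and 63.3 RPKM in MUL mice, and so was listed at 0 in PEM mouse 2 alone. The neutrophil granule gene Ngp averaged 0 and 394 RPKM in PEM mice, against 0 and 1.74 RPKM in MUL mice, and Retnlg, another neutrophil gene, 3.09 and 2325 RPKM in PEM mice, against 0.0138 and 192 RPKM in MUL mice. These came with the neutrophil markers of PEM mouse 2, which summed to 61.7 and 15256 RPKM in PEM mice, against 118 and 1011 RPKM in MUL mice. In PEM mouse 2, 1 cell had the highest value of Ngp, of Retnlg and of the marker sum, and without it the mouse averaged 0.302 RPKM of Ngp, 1.75 RPKM of Retnlg and 12.8 RPKM of the markers. Of the 15 neutrophil markers, 9 and 5 were at 0 in PEM mice and 8 and 6 in MUL mice, Elane among them in all 4 mice. The part of these transcripts in other results of PEM mouse 2 was not tested beyond leaving out the cells that carried them.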

How the data were processed

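The deposited table holds RPKM values made by the authors for 22645 gene symbols in 458 cells. The submitters' processing notes name TopHat, featureCounts and the mm10 build without versions. A second table deposited by the authors gives each cell's mouse, plate, recorded sex and status, counts of mapped reads and detected genes, and a percent of mitochondrial reads, per its header. In all 458 cells its mouse and status were the same as in the labels. Replicate numbers are names in accession order.

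RPKM was averaged over the cells of a mouse, and log2(mean RPKM + 1) was fitted in limma 3.58.1 (R 4.3.3; eBayes with trend) with 1 mean per group over all 6 mice. Genes reaching a mean of 1 RPKM in 2 or more mice were tested, and Benjamini-Hochberg adjustment covered all 11337. A fold change on this scale understates low genes. The share of cells at 1 RPKM or more was fitted after an arcsine square root transform. No count model was used, no filter on cells and no doublet caller. The fits were tested on simulated data.

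The mice compared and the 22 gene lists were chosen with earlier results of these data known. Genes were named by the size of the gap between the nearest PEM and MUL mice, overall (up to 14 a direction) and per list (up to 4), by the 10 smallest p in each direction, by the 8 largest differences of overlapping mice, and from a set of identity genes. Fosl2, Btg2, Tnfsf13b and further neutrophil and sort markers were named after their values were seen. Values at 0 are called listed at 0, because even Gapdh had 0 RPKM in 1 and 2 PEM cells and in 14 and 5 MUL cells. Alternatives covered the pseudocount, filter, scaling, averaging, detection threshold, mice in the fit, weights, plates, window of detected genes, cells with mature markers, the highest cell, and each mouse left out. Promoter windows and gene positions came from RefSeq (GRCm38.p6), matched by symbol.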

Additional observations from a re-analysis of the deposited data

Results flagged for a closer look

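Genes of the X and Y chromosomes were not left out of the comparisons above, and some show how the mice differ in sex. Xist, the RNA of the inactive X chromosome, averaged 30.7 RPKM in PEM mouse 2, against 0.03 RPKM in PEM mouse 1 and 0.0358 and 0.0208 RPKM in the MUL mice. The Y-linked gene Ddx3y averaged 9.65e-04 RPKM in PEM mouse 2, against 33.8 RPKM in PEM mouse 1 and 38.4 and 32.9 RPKM in the MUL mice. PEM mouse 2 is recorded as female and the other 3 as male, so the PEM pair is of mixed sex and the MUL pair is not. In PLT mouse 2, which is also recorded as female, Ddx3y averaged 36.5 RPKM and Xist 0.0237 RPKM, which goes against that record. The sources used here do not say whether the recorded sex is that of the donor or of the recipient.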

How the results depend on the processing

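No gene passed by level or by share under any alternative but 1. With no filter on low values, 9 of 15756 genes passed by level (limma, Benjamini-Hochberg; lowest adjusted p = 0.0189), 1 higher and 8 lower; all were at a few RPKM or less in every mouse, such as Wtip at 0 and 0 RPKM in PEM mice, against 1.62 and 1.64 RPKM in MUL mice. The 203 genes higher in both PEM mice became 126 under a filter of 5 RPKM and 578 to 935 with 1 mouse left out. The 176 lower genes became 97 under that filter, 4 when cells were averaged as log2 values (3 of them among the 176), 589 among cells with 1800 to 3000 detected genes (107 among the 176) and 366 to 1480 with 1 mouse left out. The cause of the log2 value was not tested. Under the other settings the counts stayed within 1.5 times, but the genes differed: without the highest cell of each mouse, 90 of the 203 and 83 of the 176 were kept, without cells holding mature markers 123 and 116, on plate 1 alone 99 and 81, and on plate 2 alone 66 and 67. Of 59 followed genes, 13 had overlapping mice and no direction, with 37 sign changes over the settings. Among the others, 5 changed sign: Sfpi1 (-2.45 without cells holding mature markers), Clu (-1.58 in the window of detected genes), Mcm2 (-1.19 on plate 2), Itga2b (-1.89 in the window and -1.27 on plate 2) and Gata1 (-0.20 and -0.24). The settings without mature markers and without the highest cell, and the 20 RPKM threshold, were chosen after seeing the data. The planned form of the first, 3 markers above 0, was not run because it left 0 cells in 5 of the 6 mice. No paired analysis was possible because replicate numbers only name mice in accession order. With 25 cells in PEM mouse 2, 1 cell is 4% of that mouse, which limits every share given for it.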

Other observations

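Further gene lists were described in the same way, with the median log2 difference set against -0.04 over all tested genes, and the counts above and below both MUL mice without overlap against 17.5% and 18.3% of all tested genes. Of 76 mitochondrial ribosomal protein genes, 27 lay above and 7 below (35.5% and 9.21%), with a median of 0.37 that was 0.20 among cells with 1800 to 3000 detected genes and 0.14 on plate 2 alone. Mrpl52, a protein of their large subunit, averaged 239 and 115 RPKM in PEM mice, against 38.8 and 57.5 RPKM in MUL mice. Of 34 proteasome subunit genes, 17 lay above and 4 below (50% and 11.8%), with a median of 0.33 that was 0.15 without MUL mouse 2 and in the window of detected genes, and -0.02 on plate 2 alone. Psmd7, a subunit of the regulatory particle, averaged 175 and 173 RPKM in PEM mice, against 93 and 105 RPKM in MUL mice. The lactate dehydrogenase genes lay on opposite sides. Ldha averaged 710 and 545 RPKM in PEM mice, against 361 and 411 RPKM in MUL mice, while Ldhb averaged 187 and 172 RPKM in PEM mice, against 292 and 354 RPKM in MUL mice. The 33 glycolysis and hypoxia genes as a list had a median of -0.19, with 4 above and 8 below (12.1% and 24.2%).

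Among 51 interferon response genes 2 lay above and 7 below both MUL mice (3.92% and 13.7%), with a median of 0.01. Ifitm3, a membrane protein that blocks virus entry, was 1 of the 2, at 2060 and 1812 RPKM in PEM mice, against 991 and 1171 RPKM in MUL mice. Antigen presentation genes (7 above and 4 below of 32, 21.9% and 12.5%), integrated stress response genes (6 above and 7 below of 26, 23.1% and 26.9%) and quiescence genes (5 above and 6 below of 31, 16.1% and 19.4%) had medians of 0.11, 0.06 and -0.06; each of these medians, and that of the interferon list, changed sign under at least 1 setting. Of 39 metallothionein and antioxidant genes, 10 lay above and 4 below (25.6% and 10.3%), with a median of 0.26 that was 0.08 without MUL mouse 1, 0.07 without cells holding mature markers and 0.01 in the window of detected genes.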
